A study of Mus musculus with 12 samples.

Results

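The TCF/LEF transcription factors and a set of Wnt feedback genes were followed in mouse embryonic stem cells (mESCs) grown in serum or in 2i. The set held 10 genes, chosen by name as a family and its pathway outputs with earlier results of these data known, out of 39017 genes in the count table, and all 10 passed the filter on low counts that left 17885 genes for testing. Tcf7, Tcf7l1, Tcf7l2 and Lef1 encode the 4 TCF/LEF factors, Axin2, Sp5, Nkd1 and Notum are feedback targets, and Lgr5 and Znrf3 act on the receptors.

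RNA with poly(A) tails was sequenced from 2 lines in 2 media, so that there were 4 groups of 3 biological replicates. J1 cells are wild type. The 3B3-3l line (called 3B3L in the study's methods) carries Dnmt3a-/- and Dnmt3b-/- alleles, a Dnmt3b transgene and a Flag-tagged Dnmt3l transgene, both driven by the constitutive CAG promoter, and it was selected in blasticidin. The study used it to hold DNA methylation high in 2i and asked whether its transcriptome in 2i resembled that of J1 in the same medium. Serum medium contained fetal calf serum and LIF. The 2i medium was serum-free N2B27 with 1 µM PD0325901, a MEK inhibitor, 3 µM CHIR99021, a GSK3 inhibitor, and 1000 U/ml LIF. LIF was thus in every group, at 500 U/ml in serum by the labels and at 1000 U/ml by the study's methods. The serum, the 2 inhibitors, the basal medium and, by the labels, the LIF dose changed together, so their effects cannot be told apart. In serum, J1 cells were grown on feeder cells that were then depleted, and 3B3-3l cells on gelatin, so line and culture surface cannot be told apart in that medium. By the study's methods, feeder cells were also removed for the conversion to 2i. Growth on feeder cells and medium thus cannot be told apart within J1.

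In the canonical Wnt pathway, a destruction complex that contains AXIN and GSK3 marks β-catenin for degradation, and inhibition of GSK3 lets β-catenin accumulate and bind TCF/LEF factors on DNA. TCF7L1 acts mainly as a repressor in mESCs, whereas TCF7 and LEF1 are the family members best known as activators. Many direct targets encode inhibitors of the pathway, which makes them feedback genes.

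The 12 libraries held 37050652 to 44515395 estimated reads. The labelled cell type was checked against 8 mESC markers, which were all above 1 CPM (counts scaled by library size with the TMM method) in every group and summed to between 4199 and 6230 CPM in a library. Dnmt3b stood at 404 to 427 CPM in J1 serum, 41.0 to 47.2 CPM in J1 2i and 866 to 936 CPM in the 6 libraries of 3B3-3l. Of 12 fibroblast and feeder markers, 7 had a mean of at least 1 CPM in J1 serum and in 3B3-3l serum, and 4 did in 2i in either line. Their sum was 72.6 to 76.9 CPM in J1 serum and 89.9 to 102 CPM in 3B3-3l serum, against 29.8 to 30.4 CPM in J1 2i and 18.2 to 18.4 CPM in 3B3-3l 2i. Lum, a fibroblast proteoglycan gene, was at 0 in all libraries of J1 serum, J1 2i and 3B3-3l 2i. It was the only marker of the list at 0 in J1 serum, where Col1a1 was highest with a mean of 28.1 CPM. The value of Lum thus does not show that fibroblast or feeder RNA was absent. Of the 8 markers that could be tested, 7 fell in 2i in either line, beside 32.9% of all tested genes in J1 and 32.7% in 3B3-3l. Some of the genes below fell as well, and the part of the markers in those results was not tested. The exception in J1 was Pdgfrb, which rose from 6.31 to 19.4 CPM (log2 1.62, adjusted p = 5.85e-10) and made up most of the J1 2i sum, and it measured log2 -0.01 (adjusted p = 0.925) in 3B3-3l. In bulk samples, fewer cells that express a gene and less RNA per cell cannot be told apart.

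In J1, 7 of the 10 genes passed the test between 2i and serum (Benjamini-Hochberg adjusted p under 0.05 in the quasi-likelihood test of edgeR). Of these, 4 rose and 3 fell. Over all genes tested 66.1% were called, 33.2% higher and 32.9% lower in 2i, so the count by itself did not set the 10 genes apart. In 3B3-3l, 6 of the 10 were called, 3 higher and 3 lower, where 65.4% of all genes were called, 32.7% higher and 32.7% lower. The median log2 fold change of the 10 was 0.03 in J1 and -0.05 in 3B3-3l, beside 0.01 over all genes in either line. Single members moved much further than these medians, in both directions.

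**Figure D1:**
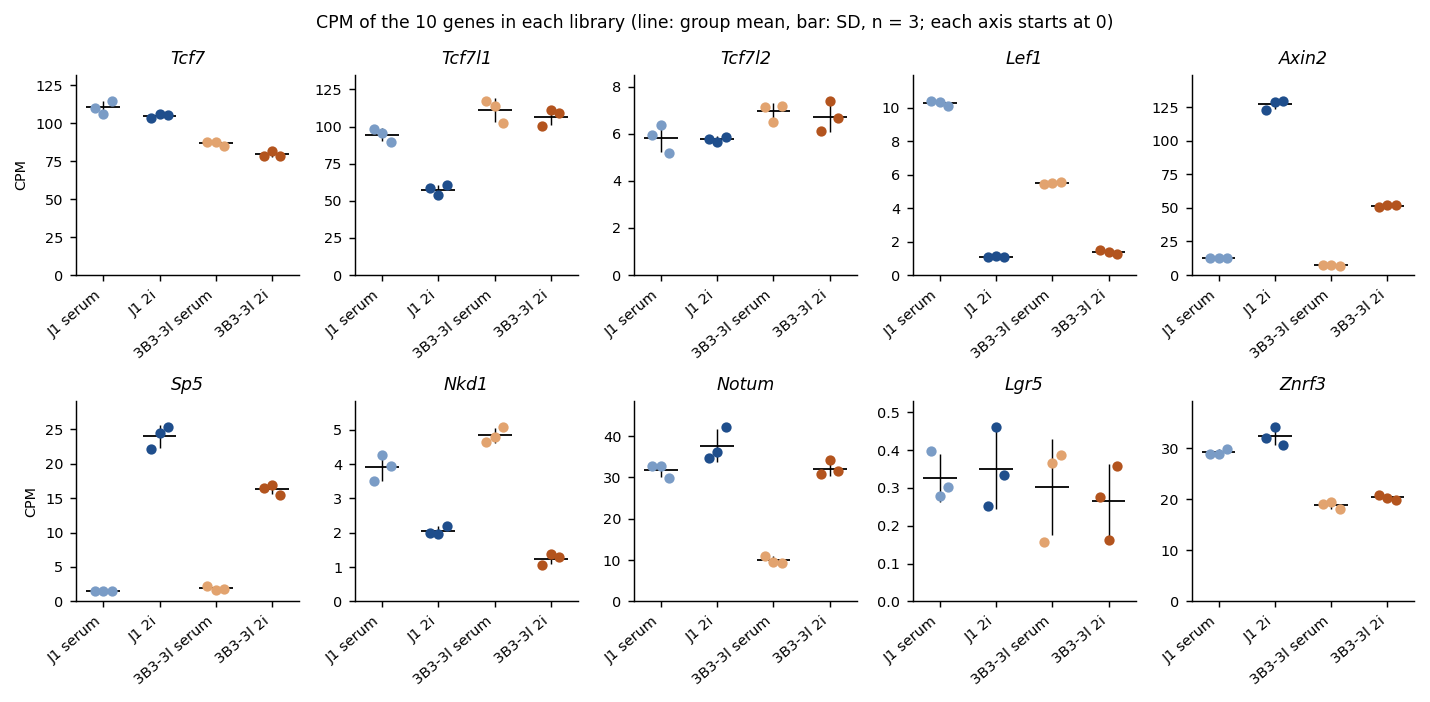
CPM of each gene (vertical axis, linear, from 0, with its own scale per panel) in each of the 12 libraries (points), with the group mean (line) and SD (bar, n = 3). Axin2 and Sp5 were higher in every 2i library than in any serum library, Lef1 and Nkd1 were lower, and Lgr5 overlapped between all groups.

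Axin2 and Sp5 showed the highest rises. Axin2 (ENSMUSG00000000142, chr11:108917828-108950783, GRCm38) encodes a scaffold of the destruction complex and is a standard reporter of β-catenin activity. It measured 12.5, 12.4 and 12.6 CPM in J1 serum and 123, 129 and 130 CPM in J1 2i. The 3B3-3l values were 7.23, 7.34 and 6.98 CPM in serum and 51.0, 52.1 and 51.8 CPM in 2i. All 4 groups were separated, with J1 2i highest and 3B3-3l serum lowest. The log2 fold change in 2i was 3.35 ± 0.05 (SE) in J1, or 10.2-fold (adjusted p = 1.25e-16), and 2.84 ± 0.05 in 3B3-3l, or 7.18-fold (adjusted p = 7.54e-16). Sp5 (ENSMUSG00000075304, chr2:70474923-70477726) encodes a zinc finger transcription factor. It measured 1.55, 1.57 and 1.54 CPM in J1 serum and 22.1, 24.6 and 25.4 CPM in J1 2i. Its 3B3-3l libraries measured 2.25, 1.72 and 1.80 CPM in serum and 16.5, 16.96 and 15.5 CPM in 2i. Its rise was 15.4-fold in J1 (log2 3.95 ± 0.10, adjusted p = 2.00e-14) and 8.49-fold in 3B3-3l (log2 3.09 ± 0.10, adjusted p = 1.86e-13). Ranked by log2 fold change from the highest of the 17885 genes, Sp5 was number 53 in J1 and 156 in 3B3-3l, and Axin2 was number 102 and 182.

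The sequences before the start sites of both genes were read from RefSeq promoter windows (GRCm38.p6), which run from 250 bases before to 50 bases after a start, because they are the 2 members that rose most. The 250 bases before the start are shown in lower case, 5′ to 3′ on the strand of the gene, with matches to a TCF/LEF core motif in capitals. The motif was CTTTGA or CTTTGT followed by A or T, on either strand. The Sp5 sequence covers chr2:70474673-70474922 (plus strand) and the Axin2 sequence chr11:108920099-108920348 (plus strand), which lies inside the annotated span of Axin2.
Sp5: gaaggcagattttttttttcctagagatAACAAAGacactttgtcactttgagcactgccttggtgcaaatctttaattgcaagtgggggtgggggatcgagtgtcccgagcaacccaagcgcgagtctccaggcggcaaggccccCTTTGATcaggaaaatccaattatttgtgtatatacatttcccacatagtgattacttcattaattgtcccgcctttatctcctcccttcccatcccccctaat
Axin2: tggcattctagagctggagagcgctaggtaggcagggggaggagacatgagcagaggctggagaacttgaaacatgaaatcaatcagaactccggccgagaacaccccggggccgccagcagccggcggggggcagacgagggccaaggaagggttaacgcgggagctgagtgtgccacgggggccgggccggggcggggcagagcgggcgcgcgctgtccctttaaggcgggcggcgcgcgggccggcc
The Sp5 window held 2 matches, CTTTGTT on the minus strand at -222 to -216 and CTTTGAT on the plus strand at -104 to -98 from the start. The Axin2 window held none. Of 32851 windows of this length, 16.9% held at least 1 match and 1.94% held at least 2. A match of letters is a description of the sequence and not a binding site.

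Notum rose in both lines but by very different amounts. Notum (ENSMUSG00000042988, chr11:120653788-120661193) encodes a secreted enzyme that removes the lipid from Wnt proteins. It measured 32.7, 32.7 and 29.8 CPM in J1 serum and 34.7, 36.2 and 42.2 CPM in J1 2i, so the groups lay next to each other without overlap. In 3B3-3l it measured 10.98, 9.55 and 9.20 CPM in serum and 30.7, 34.2 and 31.5 CPM in 2i. The 3 libraries of 3B3-3l serum were below all 9 others, and the 2i libraries of that line lay in the range of J1. The rise was 3.24-fold in 3B3-3l (log2 1.70 ± 0.09, adjusted p = 6.59e-11) and 1.19-fold in J1 (log2 0.25 ± 0.08, adjusted p = 0.0123). The J1 call did not hold with transcript length offsets (log2 0.17 ± 0.08, adjusted p = 0.0870), nor without J1 serum replicate 3 (log2 0.20, adjusted p = 0.0611) or J1 2i replicate 3 (log2 0.16, adjusted p = 0.0688).

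Lef1 and Nkd1 fell. Lef1 (ENSMUSG00000027985, chr3:131110297-131224357) encodes a TCF/LEF factor and is itself a Wnt target in many tissues. It measured 10.4, 10.3 and 10.1 CPM in J1 serum and 1.11, 1.17 and 1.05 CPM in J1 2i. The 3B3-3l values were 5.47, 5.48 and 5.54 CPM in serum and 1.495, 1.37 and 1.27 CPM in 2i. The serum libraries of J1 stood highest, those of 3B3-3l were intermediate, and both lines were low in 2i. The level in 2i was 9.23-fold lower in J1 (log2 -3.21 ± 0.10, adjusted p = 1.99e-13) and 3.99-fold lower in 3B3-3l (log2 -2.00 ± 0.10, adjusted p = 4.95e-11). Nkd1 (ENSMUSG00000031661, chr8:88521342-88594887) encodes a Dishevelled-binding inhibitor of the pathway. It measured 3.50, 4.28 and 3.96 CPM in J1 serum and 2.01, 1.96 and 2.20 CPM in J1 2i. Its 3B3-3l libraries measured 4.66, 4.78 and 5.09 CPM in serum and 1.07, 1.38 and 1.30 CPM in 2i. The estimated reads behind these values ran from 44.4 to 200.1 per library. Nkd1 was 1.90-fold lower in 2i in J1 (log2 -0.93 ± 0.12, adjusted p = 5.50e-06) and 3.90-fold lower in 3B3-3l (log2 -1.96 ± 0.13, adjusted p = 1.39e-09). Both genes thus moved against Axin2 and Sp5, which the same medium raised.

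Lef1 has 4 RefSeq windows, shown here for its most upstream start and for the internal start that held the motif, because the gene fell where Axin2 and Sp5 rose. They cover chr3:131110047-131110296 and chr3:131156044-131156293 (plus strand, GRCm38.p6), with the motif in capitals as before.
Lef1, most upstream start: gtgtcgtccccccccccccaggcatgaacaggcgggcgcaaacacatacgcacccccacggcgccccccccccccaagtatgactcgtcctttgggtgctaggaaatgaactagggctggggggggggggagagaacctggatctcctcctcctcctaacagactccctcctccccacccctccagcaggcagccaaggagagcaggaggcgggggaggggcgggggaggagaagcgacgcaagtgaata
Lef1, internal start: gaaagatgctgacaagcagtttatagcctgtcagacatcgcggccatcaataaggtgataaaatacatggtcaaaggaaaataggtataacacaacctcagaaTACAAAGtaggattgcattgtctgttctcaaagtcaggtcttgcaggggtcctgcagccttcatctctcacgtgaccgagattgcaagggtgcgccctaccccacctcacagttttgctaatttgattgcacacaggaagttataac
The internal window held CTTTGTA on the minus strand at -147 to -141, and the other 3 Lef1 windows held no match. Among the 12 windows of the 7 members that matched the RefSeq table by symbol, 3 held a match, the third in an internal window of Tcf7l2 (CTTTGTT, plus strand, -14 to -8). No match was found in these windows of Tcf7, Tcf7l1 or Nkd1.

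**Figure D2:**
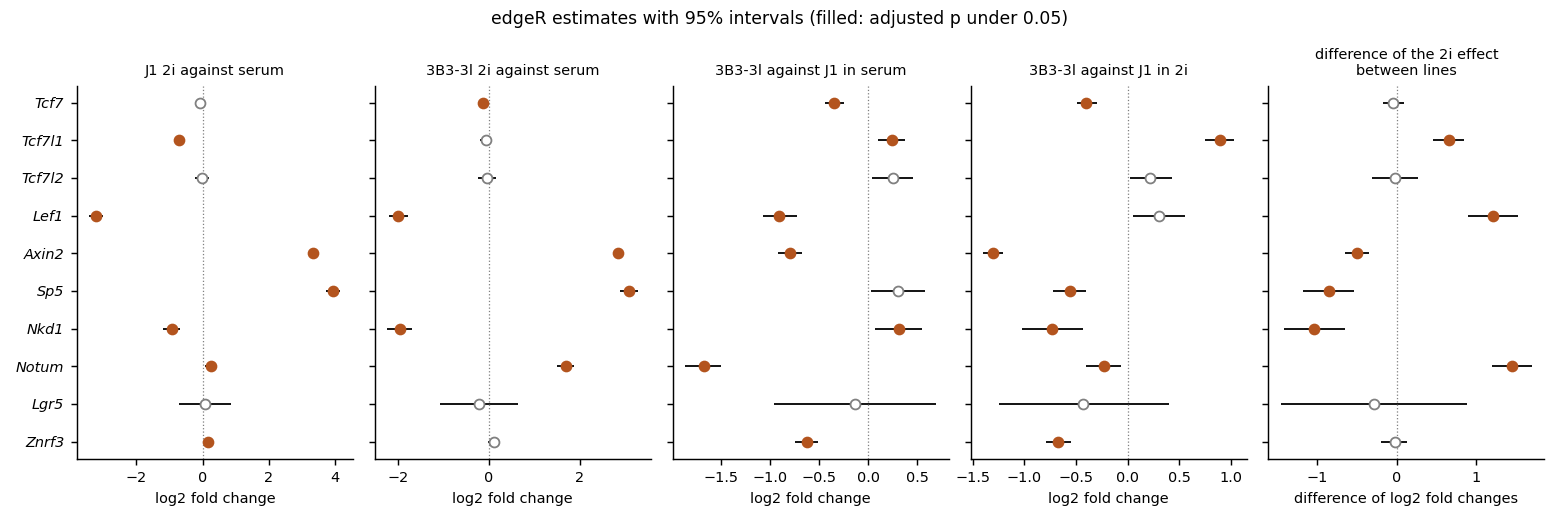
Fold changes (log2, horizontal axis, with its own scale per panel) of the 10 genes in the 5 contrasts, with 95% intervals. Filled points passed the test at an adjusted p under 0.05. Axin2 and Sp5 lie far right and Lef1 far left in the panels of 2i against serum. In that of 3B3-3l, Nkd1 (-1.96) lies about level with Lef1 (-2.0). In the panel of the difference between lines, 6 points are filled.

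The other 3 TCF factors changed much less than Lef1. Tcf7 (ENSMUSG00000000782, chr11:52246527-52283383) measured 110.2, 106.3 and 114.9 CPM in J1 serum and 103.3, 106.0 and 105.2 CPM in J1 2i. In 3B3-3l it measured 87.5, 87.9 and 84.8 CPM in serum and 78.6, 81.8 and 78.6 CPM in 2i. The lines were separated in either medium, while the media were close within a line. The log2 fold change of Tcf7 in 2i was -0.07 ± 0.04 in J1 (95% interval -0.17 to 0.02, adjusted p = 0.147) and -0.12 ± 0.04 in 3B3-3l (adjusted p = 0.0248). The 3B3-3l call was lost with no filter on low counts (adjusted p = 0.0596) and without serum replicate 1 or 2 or 2i replicate 1 or 3 of that line, with log2 -0.11 each and adjusted p of 0.0599, 0.0827, 0.0842 and 0.0903.

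Tcf7l1 (ENSMUSG00000055799, chr6:72626371-72789045) fell in J1 and was not called in 3B3-3l. It measured 98.0, 95.9 and 89.4 CPM in J1 serum and 58.3, 53.9 and 60.4 CPM in J1 2i. The 3B3-3l values were 117, 114 and 102 CPM in serum and 100.2, 111 and 109 CPM in 2i. J1 2i alone stood low, and the media overlapped in 3B3-3l. The level was 1.64-fold lower in J1 2i than in J1 serum (log2 -0.72 ± 0.06, adjusted p = 7.08e-08), and the log2 fold change in 3B3-3l was -0.06 ± 0.06 (95% interval -0.19 to 0.07, adjusted p = 0.421). Tcf7l2 (ENSMUSG00000024985, chr19:55741797-55933659) measured 5.93, 6.38 and 5.18 CPM in J1 serum and 5.77, 5.64 and 5.87 CPM in J1 2i. Its 3B3-3l libraries measured 7.14, 6.51 and 7.19 CPM in serum and 6.13, 7.40 and 6.65 CPM in 2i. The media overlapped in either line, with log2 fold changes of -0.02 ± 0.10 (95% interval -0.22 to 0.19, adjusted p = 0.873) in J1 and -0.04 ± 0.09 (95% interval -0.24 to 0.16, adjusted p = 0.709) in 3B3-3l.

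Znrf3 and Lgr5 sit in the R-spondin branch of the pathway. Znrf3 (ENSMUSG00000041961, chr11:5276329-5444847) encodes a ubiquitin ligase that removes Frizzled receptors from the cell surface. It measured 28.9, 28.9 and 29.9 CPM in J1 serum and 32.1, 34.2 and 30.7 CPM in J1 2i. In 3B3-3l it measured 19.1, 19.4 and 18.02 CPM in serum and 20.8, 20.3 and 19.9 CPM in 2i. The J1 libraries were all above those of 3B3-3l, with little distance between media. The log2 fold change was 0.15 ± 0.05 in J1 (adjusted p = 0.0274) and 0.11 ± 0.06 in 3B3-3l (95% interval -0.01 to 0.23, adjusted p = 0.0979). The J1 call did not hold under 5 alternatives, with adjusted p of 0.140 with no filter, 0.0566 under the stricter filter of at least 10 counts per library, 0.0567 in the DESeq2 Wald test, 0.0762 with transcript length offsets and 0.0850 with only the 6 libraries compared. It did not hold without J1 serum replicate 1 (log2 0.14, adjusted p = 0.0832), J1 serum replicate 2 (log2 0.14, adjusted p = 0.0741) or J1 2i replicate 2 (log2 0.11, adjusted p = 0.124) either. Lgr5 (ENSMUSG00000020140, chr10:115450314-115587780), which encodes an R-spondin receptor and marks intestinal stem cells, was near the limit of detection. It had 6.0 to 20.1 estimated reads, or 0.157 to 0.461 CPM, in a library, where 3 counts corresponded to 0.0674 to 0.0810 CPM. It was called in no contrast, and its 95% interval in J1 ran from -0.72 to 0.87 on the log2 scale, so that a change below about this size was not detectable at this depth.

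The 4 factors were then compared with each other per length, as RPKM (CPM divided by the effective transcript length in kilobases), since CPM values cannot be compared between genes. Their sum was 98.4 ± 1.89 RPKM (SD, n = 3) in J1 serum, 77.0 ± 0.977 in J1 2i, 92.1 ± 4.78 in 3B3-3l serum and 85.1 ± 2.50 in 3B3-3l 2i. Tcf7 and Tcf7l1 together made up most of it in every library. Tcf7 held 54.7, 54.5 and 58.1% of the sum in J1 serum and 65.8, 68.2 and 65.8% in J1 2i, against 45.7, 47.0 and 48.4% in 3B3-3l serum and 46.4, 45.8 and 44.9% in 3B3-3l 2i. Tcf7l1 held 39.4, 39.5 and 36.1% in J1 serum and 30.7, 28.5 and 30.9% in J1 2i, against 48.9, 48.4 and 47.0% in 3B3-3l serum and 50.1, 50.4 and 51.4% in 3B3-3l 2i. Tcf7 thus led Tcf7l1 in all 6 J1 libraries and lay near it in all 6 libraries of 3B3-3l. The ratio of Tcf7 to Tcf7l1 was 1.46 ± 0.129 in J1 serum, 2.22 ± 0.148 in J1 2i, 0.979 ± 0.0471 in 3B3-3l serum and 0.902 ± 0.0262 in 3B3-3l 2i. Lef1 held 3.36% of the sum in J1 serum and 1.99% in 3B3-3l serum, and 0.451% and 0.556% in 2i. Tcf7l2 held 2.49 to 3.11% on average in all 4 groups. These sums, shares and ratios cover only quantified transcripts. They were 2 of 4 annotated for Tcf7, 4 of 5 for Tcf7l1, 22 of 24 for Tcf7l2 and 6 of 6 for Lef1.

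**Figure D3:**
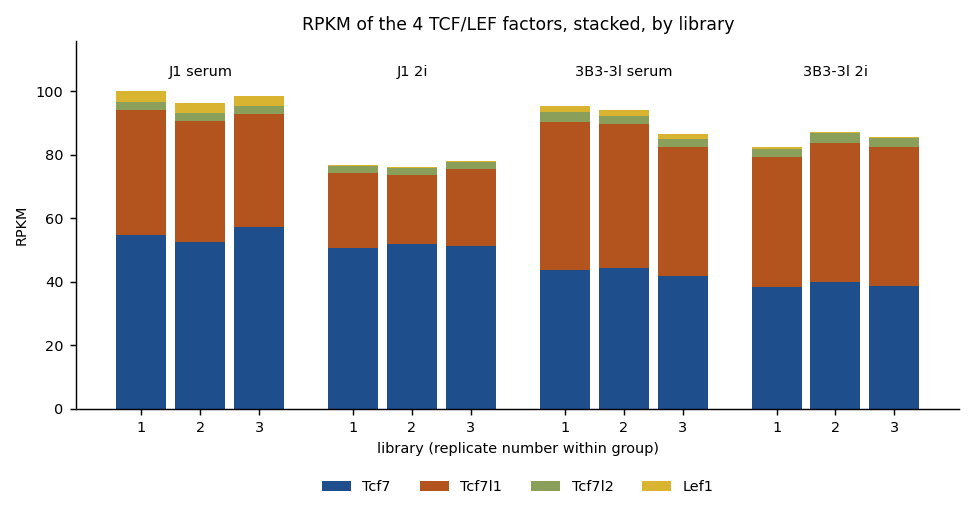
RPKM (vertical axis) of Tcf7, Tcf7l1, Tcf7l2 and Lef1, stacked, in each of the 12 libraries (replicate number on the horizontal axis, grouped by line and medium). The Tcf7l1 part is smaller in the 3 libraries of J1 2i than in all others, and the Lef1 part is thin in all 2i libraries.

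Among all 10 genes, the order of RPKM differed between groups. Tcf7 led in J1 serum at 54.9 ± 2.39 RPKM, followed by Tcf7l1 at 37.8 ± 1.92 and Notum at 22.7 ± 0.291. Znrf3 (5.74 ± 0.187), Axin2 (3.92 ± 0.378), Lef1 (3.31 ± 0.0690) and Tcf7l2 (2.45 ± 0.0565) came next, ahead of Nkd1 (0.943 ± 0.0937), Sp5 (0.805 ± 0.00456) and Lgr5 (0.0994 ± 0.0260). No neighbours overlapped over their 3 libraries there. In J1 2i, Axin2 moved to the second place at 42.9 ± 0.987 RPKM, behind Tcf7 (51.3 ± 0.675), and Sp5 to the fifth at 12.5 ± 0.882, while Lef1 dropped to the ninth at 0.347 ± 0.0127. Notum (25.8 ± 2.97) and Tcf7l1 (23.2 ± 1.27) overlapped in that group. In 3B3-3l serum, Tcf7l1 (44.3 ± 3.17) and Tcf7 (43.3 ± 1.23) overlapped at the top, as did Tcf7l2 (2.69 ± 0.559) with Axin2 (2.27 ± 0.216) and Nkd1 (1.17 ± 0.0558) with Sp5 (0.999 ± 0.142). In 3B3-3l 2i no neighbours overlapped, and the order ran from Tcf7l1 (43.1 ± 1.62) over Tcf7 (38.9 ± 0.909), Notum (22.8 ± 2.05), Axin2 (16.4 ± 0.168) and Sp5 (8.42 ± 0.349) to Lgr5 (0.0945 ± 0.0288).

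The lines were compared within each medium. In serum, 7 of the 10 genes differed, 2 higher and 5 lower in 3B3-3l, where 38.7% of all genes were called, 21.5% higher and 17.2% lower. Notum differed most, at 3.21-fold lower in 3B3-3l (log2 -1.68 ± 0.09, adjusted p = 2.75e-09). Lef1 (log2 -0.91 ± 0.08, adjusted p = 5.82e-07), Axin2 (log2 -0.80 ± 0.06, adjusted p = 4.58e-08), Znrf3 (log2 -0.63 ± 0.06, adjusted p = 5.43e-07) and Tcf7 (log2 -0.35 ± 0.04, adjusted p = 1.68e-05) were also lower. Tcf7l1 was higher in 3B3-3l (log2 0.24 ± 0.06, adjusted p = 0.00800). Nkd1 was called higher (log2 0.31 ± 0.11, adjusted p = 0.0395) but was near the threshold, with adjusted p of 0.0282 to 0.167 over the 20 alternatives. Its call was lost with no filter (log2 0.29, adjusted p = 0.117), in the DESeq2 Wald test (log2 0.30, adjusted p = 0.0990), with transcript length offsets (log2 0.31, adjusted p = 0.0649) and with only the 6 libraries compared (log2 0.29, adjusted p = 0.0536). It was also lost without J1 serum replicate 1 (log2 0.23, adjusted p = 0.167) or 3 (log2 0.32, adjusted p = 0.0747), 3B3-3l serum replicate 1 (log2 0.34, adjusted p = 0.0501), 2 (log2 0.32, adjusted p = 0.0795) or 3 (log2 0.27, adjusted p = 0.128), or 3B3-3l 2i replicate 3 (log2 0.31, adjusted p = 0.0505). Sp5 (log2 0.30 ± 0.13, adjusted p = 0.0782) and Tcf7l2 (log2 0.25 ± 0.10, adjusted p = 0.0526) were not called. Tcf7l2 passed under the stricter filter (log2 0.25, adjusted p = 0.0447) and without J1 serum replicate 2 (log2 0.32, adjusted p = 0.0306) or 3B3-3l 2i replicate 1 (log2 0.25, adjusted p = 0.0497) or 2 (log2 0.25, adjusted p = 0.0460).

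In 2i, 7 of the 10 genes differed between lines, 1 higher and 6 lower in 3B3-3l, where 45.9% of all genes were called, 23.0% higher and 22.9% lower. Tcf7l1 was the member that was higher, at 1.85-fold (log2 0.89 ± 0.06, adjusted p = 2.71e-08). Axin2 was 2.46-fold lower in 3B3-3l (log2 -1.30 ± 0.04, adjusted p = 1.08e-11), Nkd1 1.65-fold lower (log2 -0.73 ± 0.14, adjusted p = 0.000501), Znrf3 1.59-fold lower (log2 -0.67 ± 0.06, adjusted p = 1.36e-07) and Sp5 1.47-fold lower (log2 -0.56 ± 0.07, adjusted p = 1.69e-05). Tcf7 was 1.32-fold lower (log2 -0.40 ± 0.04, adjusted p = 3.10e-06). Notum was 1.17-fold lower (log2 -0.23 ± 0.08, adjusted p = 0.0262), a call lost with transcript length offsets (log2 -0.17, adjusted p = 0.129) and without J1 2i replicate 3 (log2 -0.14, adjusted p = 0.135) or 3B3-3l 2i replicate 1 (log2 -0.20, adjusted p = 0.102) or 3 (log2 -0.21, adjusted p = 0.0831). Lef1 was not called (log2 0.30 ± 0.12, adjusted p = 0.114) but passed with length offsets (log2 0.43, adjusted p = 0.0237). Tcf7l2 was not called either (log2 0.22 ± 0.10, adjusted p = 0.0682) and passed without 3B3-3l 2i replicate 1 (log2 0.29, adjusted p = 0.0367). The alleles and both transgenes cannot be told apart in these comparisons.

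The difference of the 2i effect between lines was tested directly, as an interaction term. It was called for 6 of the 10 genes, with the log2 fold change higher in 3B3-3l for 3 and lower for 3, where 34.7% of all genes were called, 16.3% higher and 18.3% lower. The effect on Notum was larger in 3B3-3l by 1.45 ± 0.12 on the log2 scale (adjusted p = 3.02e-07). Lef1 fell less in 3B3-3l, with a difference of 1.21 ± 0.15 (adjusted p = 1.45e-05). For Tcf7l1, which fell in J1 and was not called in 3B3-3l, the difference was 0.66 ± 0.09 (adjusted p = 5.03e-05). Nkd1 fell further in 3B3-3l, with a difference of -1.04 ± 0.18 (adjusted p = 0.000375). The rises of Sp5 and Axin2 were smaller there, with differences of -0.86 ± 0.15 (adjusted p = 0.000382) and -0.50 ± 0.07 (adjusted p = 6.83e-05). For Tcf7, Tcf7l2 and Znrf3 the difference was within 95% intervals of -0.18 to 0.09, -0.31 to 0.26 and -0.20 to 0.13.

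Transcript estimates were used to ask whether isoforms shifted within the genes. A share was the part of a gene's RPK (reads per kilobase of effective length) assigned to a transcript, and 33 transcripts of the 10 genes reached 5% in a group. By an exact two-sided permutation test within lines, none differed between media after adjustment, and 5 were under 0.05 before it. By the same test within media, none differed between lines after adjustment, and 2 were under 0.05 before it. The smallest p this test can give was 0.005, so that with 33 transcripts no single share could pass alone, and the lack of calls shows little. Tcf7-001 held 60.0 ± 0.946% of Tcf7 in J1 serum and 65.6 ± 0.706% in J1 2i, and 60.1 ± 3.29% and 64.5 ± 0.858% in 3B3-3l (exact permutation p = 0.01, adjusted p = 0.066 between media). Of 4 annotated Tcf7 transcripts, 2 were quantified, both with a coding length of 912 bases, so the shares do not cover the other 2. The rest of the quantified Tcf7 was Tcf7-002. Znrf3-001 held 27.7 ± 1.02% in J1 serum, 31.6 ± 2.72% in J1 2i, 34.2 ± 2.27% in 3B3-3l serum and 37.8 ± 1.01% in 3B3-3l 2i (exact permutation p = 0.005, adjusted p = 0.0825 between lines). In Notum, the retained-intron transcript Notum-002 held 39.3 to 44.7% of RPK on average in all 4 groups. The spread was wide in 3B3-3l serum, at 41.6 ± 12.5% for Notum-002 and 14.6 ± 25.3% for Notum-001. Axin2-001 also spread in serum, at 69.2 ± 14.1% in J1 and 71.2 ± 12.4% in 3B3-3l. In Lgr5, the retained-intron transcript Lgr5-003 held 62.5 to 81.9% on average, from 2.28 to 16.9 estimated reads in a library. The shares of Lef1 and Tcf7l2 transcripts were poorly resolved, as for Lef1-004 with 42.6 ± 25.6% in J1 2i.

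**Figure D4:**
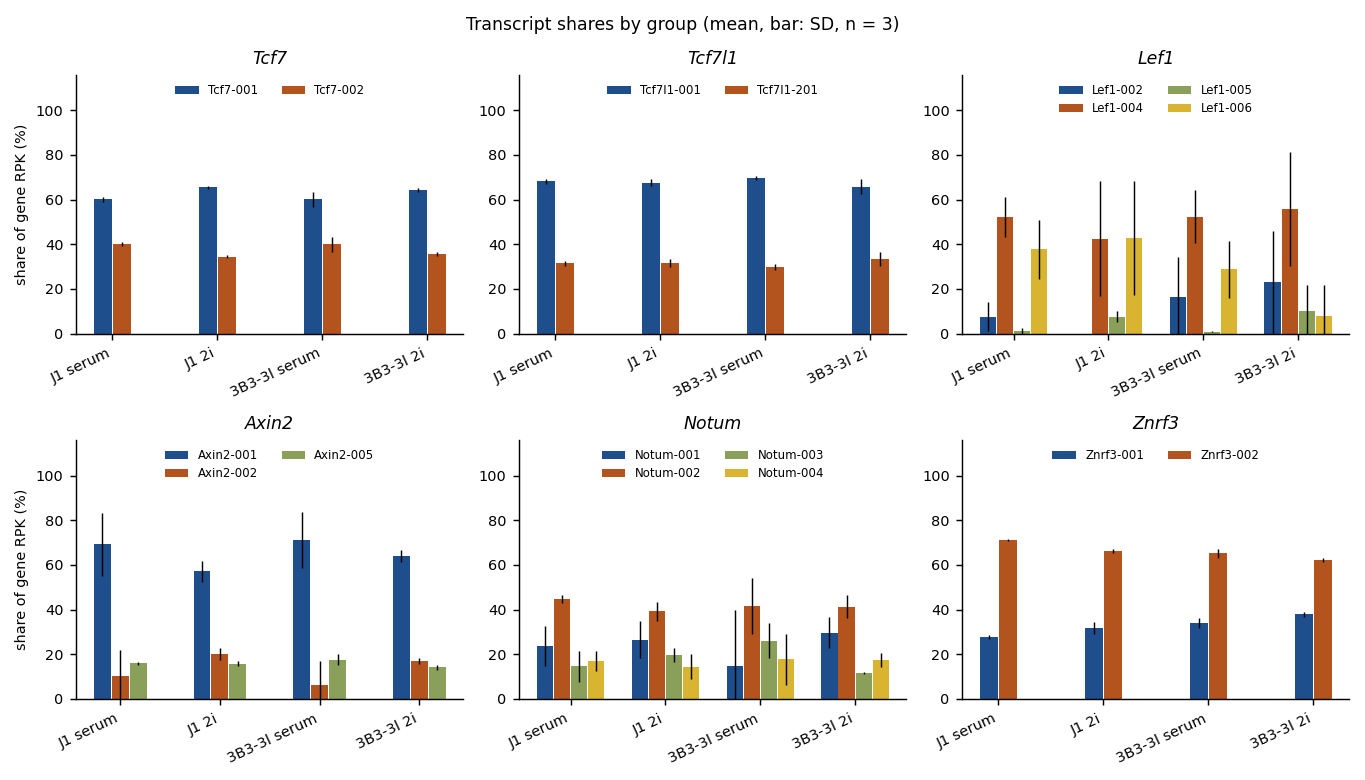
Share of each gene's RPK (vertical axis, percent) held by its transcripts of at least 5% in a group, as the mean of 3 libraries with SD, for 6 of the genes in the 4 groups. Tcf7, Tcf7l1 and Znrf3 have narrow errors, while those of Lef1 span up to 25.6 points.

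The other genes of the pathway were read from 8 lists that together held 110 genes of the table, of which 95 were tested. In J1, 27 rose and 48 fell in 2i, with a median log2 fold change of -0.21, and 78.9% were called, beside 66.1% of all genes (33.2% higher and 32.9% lower). In 3B3-3l, 27 rose and 42 fell, with a median of -0.12, and 72.6% were called, beside 65.4% of all genes (32.7% in either direction). Each list with 12 or more tested genes held genes that rose and genes that fell.

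Among 13 tested Wnt ligands, 3 rose and 7 fell in J1 and 3 rose and 8 fell in 3B3-3l, with medians of -1.65 and -2.74. Wnt5b rose in J1 (1.03 ± 0.320 CPM in serum, 13.1 ± 0.989 CPM in 2i) and in 3B3-3l (0.920 ± 0.159 CPM in serum, 6.58 ± 0.423 CPM in 2i) (log2 3.68 ± 0.15 and 2.84 ± 0.16). Wnt7b fell in J1, from 4.74 ± 0.281 to 0.111 ± 0.0766 CPM, and in 3B3-3l, from 7.30 ± 0.394 to 0.119 ± 0.0850 CPM, where 3 counts corresponded to 0.0674 to 0.0810 CPM in a library. Under a stricter filter of at least 10 counts per library, the number of called ligands was 4 in either line. Wls, which carries Wnt proteins to the cell surface, fell in both lines, from 11.5 ± 0.692 to 5.80 ± 0.624 CPM in 3B3-3l. Porcn, which acylates Wnt proteins, fell in 3B3-3l (log2 -0.36 ± 0.07) and measured log2 0.06 ± 0.07 in J1.

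Of 15 receptors and co-receptors, 8 rose and 6 fell in J1, and 4 rose and 6 fell in 3B3-3l, with medians of 0.15 and -0.08. The Frizzled receptor gene Fzd10 rose by log2 3.11 ± 0.06 in J1 and 3.10 ± 0.06 in 3B3-3l, to 58.1 ± 1.71 and 51.5 ± 2.62 CPM. Ror2, a receptor of non-canonical Wnt signals, rose by log2 1.60 ± 0.06 and 1.66 ± 0.06. Fzd7 fell in J1 (108 ± 6.22 CPM in serum, 27.8 ± 0.422 CPM in 2i) and in 3B3-3l (130 ± 3.20 CPM in serum, 30.7 ± 2.17 CPM in 2i), and Fzd2 fell by 1.92 ± 0.09 and 2.24 ± 0.09 on the log2 scale. Frizzled genes thus moved in opposite directions in the same libraries.

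Of 12 secreted and surface inhibitors, 3 rose and 6 fell in J1 and 6 rose and 4 fell in 3B3-3l, with medians of -0.48 and 0.01. Sfrp1, a secreted Wnt-binding protein gene, rose in J1 (53.7 ± 0.494 CPM in serum, 141 ± 2.07 CPM in 2i) and in 3B3-3l (69.7 ± 1.48 CPM in serum, 263 ± 9.31 CPM in 2i). Tpbg, a surface inhibitor gene, rose by log2 1.31 ± 0.07 and 1.16 ± 0.07. Its relatives in the list did not follow Sfrp1: Sfrp2 had log2 fold changes of -3.02 ± 0.13 and -3.25 ± 0.13, and Sfrp4 of -2.54 ± 0.11 and -1.24 ± 0.10. Of 5 genes of the R-spondin axis, 4 fell and none rose in either line, with medians of -2.47 and -1.05, and under the stricter filter 2 were called in either line. Lgr4, the abundant relative of Lgr5, fell in J1 (89.9 ± 1.86 CPM in serum, 61.1 ± 7.29 CPM in 2i) and in 3B3-3l (92.7 ± 10.1 CPM in serum, 59.1 ± 4.23 CPM in 2i).

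Of 18 genes of the destruction complex and the Dishevelled group, 3 rose and 9 fell in J1 and 3 rose and 6 fell in 3B3-3l, mostly by little, with medians of -0.10 and -0.03. Gsk3b, which encodes a target of CHIR99021, rose in J1 (45.2 ± 1.57 CPM in serum, 65.0 ± 2.96 CPM in 2i) and in 3B3-3l (55.4 ± 1.78 CPM in serum, 65.2 ± 3.15 CPM in 2i). Nkd2, the relative of Nkd1, fell in J1 (7.43 ± 0.690 CPM in serum, 1.58 ± 0.0925 CPM in 2i) and in 3B3-3l (8.32 ± 1.24 CPM in serum, 1.34 ± 0.122 CPM in 2i). Dvl3 rose by log2 0.46 ± 0.07 and 0.50 ± 0.07, and Dvl2 fell by 0.30 ± 0.05 on the log2 scale in J1 and measured log2 0.02 ± 0.05 in 3B3-3l. Jup, the gene of plakoglobin, rose in 3B3-3l (log2 0.36 ± 0.06) and measured log2 -0.07 ± 0.06 in J1. Tnks2, which encodes a tankyrase that destabilises AXIN, fell by 0.22 ± 0.07 and 0.36 ± 0.07 on the log2 scale.

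Of 15 nuclear cofactors, 5 rose and 7 fell in J1 and 4 rose and 6 fell in 3B3-3l, with medians of -0.09 and -0.06. Aes, a short member of the Groucho corepressor family, rose in J1 (95.4 ± 2.21 CPM in serum, 211 ± 22.3 CPM in 2i) and in 3B3-3l (84.4 ± 4.02 CPM in serum, 190 ± 9.49 CPM in 2i), and its relative Tle6 rose by log2 0.70 ± 0.08 and 0.95 ± 0.09. Ctnnbip1, an inhibitor of the binding of β-catenin to TCF factors, fell by 0.80 ± 0.06 and 0.72 ± 0.06 on the log2 scale, and the kinase gene Hipk2 fell by 0.76 ± 0.06 and 1.09 ± 0.06.

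**Figure D5:**
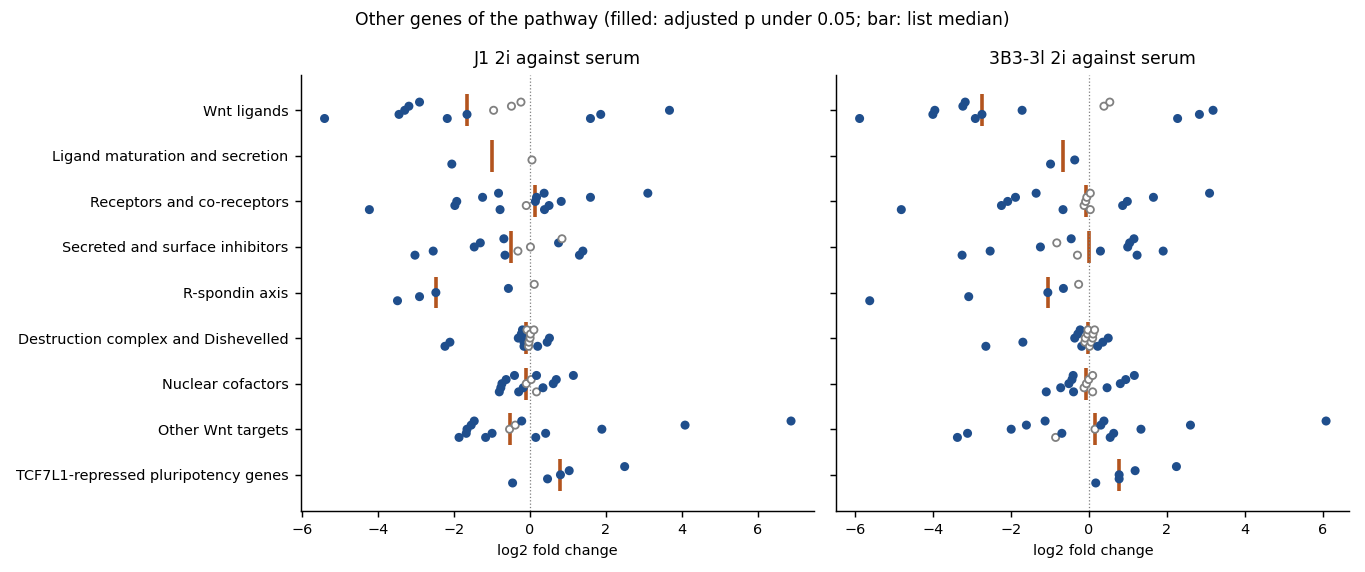
Fold changes in 2i (log2, horizontal axis) of the tested genes of 9 lists (rows) in J1 and in 3B3-3l. Filled points passed the test at an adjusted p under 0.05, and the bar is the median of the list. Wnt ligands have medians of -1.65 and -2.74, while that of the destruction complex list is -0.10 and -0.03, with Nkd2 (-2.23 and -2.64) and Apc2 (-2.10 and -1.69) far below it.

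Of 15 other Wnt targets, 5 rose and 8 fell in J1 and 7 rose and 6 fell in 3B3-3l, with medians of -0.53 and 0.16. Cdx1, a homeobox gene of the posterior body, rose from 0.495 ± 0.158 CPM in J1 serum to 59.0 ± 6.29 CPM in J1 2i and from 0.435 ± 0.157 to 29.9 ± 0.512 CPM in 3B3-3l. T, the Brachyury gene of the primitive streak, rose in J1 (0.762 ± 0.279 CPM in serum, 13.2 ± 1.77 CPM in 2i) and in 3B3-3l (1.31 ± 0.285 CPM in serum, 8.01 ± 0.490 CPM in 2i). Jun fell in J1 (16.2 ± 1.79 CPM in serum, 4.44 ± 0.339 CPM in 2i) and in 3B3-3l (18.9 ± 0.701 CPM in serum, 2.20 ± 0.568 CPM in 2i), Myc fell by 1.65 ± 0.11 and 0.69 ± 0.10 on the log2 scale, and Ascl2 fell by 1.67 ± 0.15 and 3.37 ± 0.16. The difference of the 2i effect between lines was called for T (-1.48, adjusted p = 0.000730) and not for Cdx1 (-0.79, adjusted p = 0.0688).

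Of 5 tested pluripotency genes known to be repressed by TCF7L1, 4 rose and 1 fell in J1 and 5 rose in 3B3-3l, with medians of 0.81 and 0.78. Beside them, 33.2% of all tested genes rose and 32.9% fell in J1, and 32.7% rose and 32.7% fell in 3B3-3l. Tbx3 rose in J1 (39.0 ± 1.06 CPM in serum, 220.4 ± 10.6 CPM in 2i) and in 3B3-3l (50.4 ± 3.66 CPM in serum, 240 ± 1.23 CPM in 2i). Nanog rose by log2 1.04 ± 0.04 and 0.78 ± 0.04, and Nr5a2 by 0.81 ± 0.06 and 1.19 ± 0.06. Klf2 fell from 371 ± 5.61 to 272 ± 15.5 CPM in J1 and rose from 277 ± 30.5 to 315 ± 7.39 CPM in 3B3-3l. Tcf7l1 itself fell in J1 and was not called in 3B3-3l (log2 -0.06 ± 0.06), and its part in the values of these genes was not tested.

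Markers of other cell types were read beside these values. Of 5 tested mesoderm and streak markers, 3 rose in J1 and 4 rose and 1 fell in 3B3-3l. The 6 matched markers of that list summed to 5.97 to 6.65 CPM in the serum libraries of both lines. In 2i they summed to 29.5 to 35.2 CPM in J1 and 22.4 to 23.8 CPM in 3B3-3l. Eomes, a streak transcription factor gene, made up most of that rise, with 2.87 CPM in J1 serum, 28.1 CPM in J1 2i, 3.55 CPM in 3B3-3l serum and 18.6 CPM in 3B3-3l 2i. Tbx6 fell in 3B3-3l (log2 -1.33) and Kdr measured log2 0.05 in J1. Eomes moved with Axin2, Sp5 and T, and its part in those values was not tested. Of 5 tested primitive endoderm markers, 2 rose and 1 fell in J1 and 4 fell in 3B3-3l, with sums of 2.61 to 7.03 CPM over all libraries. Of 3 tested neural markers, 3 fell in J1 and 2 fell in 3B3-3l, and their summed level was 83.4 to 151 CPM. Of 8 tested mESC markers, 4 rose and 3 fell in J1 and 5 rose and 2 fell in 3B3-3l, and of 8 tested fibroblast and feeder markers, 1 rose and 7 fell in J1 and 7 fell in 3B3-3l. Over all genes tested, 33.2% rose and 32.9% fell in J1, and 32.7% rose and 32.7% fell in 3B3-3l.

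Genes with the most similar pattern were found by the root mean square difference of log2 CPM values, centred on each gene, over the 12 libraries. Those nearest to Axin2 were Fam53b (0.259), Slc39a11 (0.339) and Gm15743 (0.349), and those nearest to Sp5 were Aldh1l1 (0.217), Meis2 (0.225) and Plagl1 (0.228). Axin2 and Sp5 were each other's nearest member, at a difference of 0.513. Myo3b (0.207), Slc23a1 (0.222) and Wscd1 (0.223) were nearest to Lef1, Aspg (0.128) and Zic2 (0.132) to Nkd1, and Mep1b (0.124), 4732444A12Rik (0.175) and Nup210l (0.246) to Notum. For Tcf7l1 they were Nudt9 (0.0850), Mybl2 (0.0957) and Tmem41a (0.102), for Tcf7 Fam114a2 (0.0387), Gga3 (0.0426) and Nbr1 (0.0447), for Tcf7l2 Pdhb (0.0847), Pias3 (0.0860) and Ttc23 (0.0868), and for Znrf3 Cntrob (0.0541), Srxn1 (0.0728) and Cnot6 (0.0739). Lgr5 was nearest to Gm9958 (0.238), Cr2 (0.242) and Pdzk1ip1 (0.265). These points share libraries and groups, and the likeness is a description.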

How the data were processed

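Poly(A) RNA of 12 mESC libraries was sequenced with a stranded kit. The authors ran Sailfish with the strand of the reads given, on mm10 models, and summarised to genes with tximport. The deposited gene table holds estimated counts per gene, not scaled for depth or length. The deposited transcript tables hold TPM and estimated counts per transcript with effective lengths. TPM values were not compared here, since transcripts with an effective length under 200 bases took 22.6 to 52.1% of TPM but at most 0.961% of reads in a library. The study pooled its libraries for sequencing, and the pool of each library is not given in the sources used here.

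Groups and replicates follow the labels. Replicates were labelled as biological; p-values measure the spread between these libraries. Estimated counts were rounded, filtered with filterByExpr and scaled by TMM (edgeR 4.0.16, R 4.3.3), which left 17885 of 39017 genes. All 12 libraries entered 1 quasi-likelihood model with a term for each group and 5 contrasts, and p-values were adjusted by Benjamini-Hochberg over all genes tested. Adjusted p for single genes are from edgeR where no other test is given. Log2 fold changes carry SE. CPM are means ± SD. A floor of 3 counts covers counting error only, and the reads carry no molecular identifiers. The SE and intervals of log2 fold changes were derived from the test statistic of the quasi-likelihood model, which estimates the spread between replicates. They can be too narrow for genes with few reads. For Lef1 between lines in 2i the 95% interval was 0.05 to 0.56, though the edgeR p before adjustment was 0.0611. For Lef1 in J1 the SE was 0.10 in edgeR and 0.16 in the DESeq2 Wald test.

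RPKM were summed over transcripts with an effective length of at least 200 bases. Transcript shares were compared by exact two-sided permutation, with media exchanged within lines or lines within media, adjusted over 33 transcripts. Gene symbols were matched for 85.6% of genes and transcripts to genes for 90.4%. Transcript names and coding lengths are from GENCODE vM1, and gene coordinates and promoter windows from RefSeq (GRCm38), matched by symbol. The tests were tried on simulated data.

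Genes named beside the 10 members were, per pathway list and line, up to 2 highest and 2 lowest log2 fold changes among called genes with at least 5 CPM, and the 3 nearest genes of each member. The 14 lists were the Wnt ligands, ligand maturation, receptors, inhibitors, R-spondin axis, destruction complex, nuclear cofactors, other targets and TCF7L1-repressed genes, and 5 marker lists, and 151 of their 155 genes were matched by symbol. The members and lists were chosen with earlier results of these data known. Alternatives were other scaling, filters and tools, length offsets, transcript sums, the replicate number as a block, fits to 6 libraries and leaving out each library.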

Additional observations from a re-analysis of the deposited data

Results flagged for a closer look

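For 6 of the 10 genes the effect of 2i differed between J1 and 3B3-3l by a test of the difference itself (the interaction term of the edgeR model, adjusted p under 0.05). The differences, as the log2 fold change in 3B3-3l minus that in J1, were 0.66 for Tcf7l1, 1.21 for Lef1, -0.50 for Axin2, -0.86 for Sp5, -1.04 for Nkd1 and 1.45 for Notum. For Notum the levels in serum differed between lines more than those in 2i, with 31.8 ± 1.69 and 9.91 ± 0.941 CPM in serum against 37.7 ± 3.97 and 32.1 ± 1.85 CPM in 2i (SD, n = 3), and the same held for Lef1. For Tcf7l1, Axin2, Sp5 and Nkd1 the levels in 2i differed more, as for Tcf7l1, which was 107 ± 5.74 CPM in 3B3-3l and 57.5 ± 3.31 CPM in J1. Of all genes, 34.7% were called in this contrast. The culture surface in serum, the alleles and the transgenes differ between the lines, and their parts cannot be told apart.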

How the results depend on the processing

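The member and all-gene counts of calls stayed within 1.5 times the reported count under each alternative. For 10 members this bound is wide and shows little. Between 2i and serum in J1, 7 members were called as reported, 5 with transcript length offsets and 6 under several other alternatives. The transcript shares are left out here, since with a smallest p of 0.005 and 33 transcripts a single share could not pass. Of the alternative log2 fold changes of the 10 genes, 936 kept their direction and side of the threshold, 30 lost and 6 gained a call, and 13 changed sign, all of them uncalled. The lost and gained calls concern Znrf3 and Notum in J1, Tcf7 in 3B3-3l, and Nkd1, Notum, Tcf7l2 and Lef1 between lines, given above with their values. With transcript length offsets the sign changed for Lgr5 between lines in serum (0.10) and Tcf7l2 in the difference between lines (0.15). Leaving out 1 library moved Tcf7l2 from -0.10 to 0.05 in J1, from -0.14 to 0.02 in 3B3-3l and from -0.12 to 0.04 in the difference, Lgr5 from -0.17 to 0.27 in J1, from -0.51 to 0.02 in 3B3-3l and from -0.35 to 0.16 between lines in serum, and Znrf3 from -0.08 to 0.01 in the difference. The cause was not tested. Of 1386 list counts 69 moved by over 1.5 times, 39 when 1 library was left out and 16 with at least 10 counts in every library. With the gene count over the mean effective length, 14 RPKM levels moved by over 1 SD, among them all 4 of Axin2 (34.9 in J1 2i), and the order of the genes did not change.

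Replicates of equal number did not deviate together (correlations of -0.118 to 0.017), so the numbers give no pairing. With the replicate number as a block, 7, 6, 7, 7 and 6 members were called in the 5 contrasts, as without it. Depth limits Lgr5, with at most 20.1 estimated reads in a library.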
